A study of Mus musculus with 16 samples.

Results

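The 8 control livers of a 16-sample array study were examined on their own, to show which transcripts are held at the same level from one control liver to the next and which are not. They were chosen by their label, control, and came from C57BL/6 mice with no treatment or altered gene named. The other 8 samples, livers of a nonalcoholic steatohepatitis model, entered no step. The labels call each sample a liver biopsy and number the controls 1, 3, 4, 5, 6, 7, 9 and 10, and those numbers are used as names below. The labels give no age, sex, diet, fasting state, hour of collection or scan batch for any control. The series' design text speaks of 8 control mice, so each sample was taken as 1 animal.

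Liver transcripts are known to follow several bodily states. Feeding and insulin raise the genes of fatty acid synthesis, while fasting raises targets of the fatty acid sensor PPARα such as the Cyp4a fatty acid hydroxylases. The circadian clock, in which ARNTL and CLOCK activate the Per and Cry genes, Dbp and Nr1d1, gives many hepatocyte genes a daily rhythm. Inflammatory cytokines such as IL-6 switch on the acute-phase genes, which hepatocytes use to make plasma proteins such as serum amyloid A. Stress hormones act through the glucocorticoid receptor, and handling or tissue disruption can induce immediate-early genes such as Fos within a short time.

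The level of a gene is given as the log2 signal of its probe set, so a difference of 1 is a 2-fold difference in signal. Of 19505 genes with a symbol, 9542 had a mean above 4 over the controls and were used to describe spread, and the other 9963 were too dim. Any pair of the 8 livers correlated across these genes with r between 0.9467 and 0.9749 over 28 pairs. The SD of the gene-wise differences of a pair ran from 0.357 (log2 units) to 0.521, widest between controls 4 and 10. Markers of pancreas (8 measured) and of muscle and mesothelium (9 measured) had no member with a mean above 4. The hepatocyte markers were bright, with a median level of 11.8 over 14 genes, and none of the 14 had an SD of at least 0.5. The Y-linked gene Eif2s3y read between 6.67 and 7.26 in the 8 livers.

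Most genes differed little between control livers. The median SD over the 8 samples was 0.222 log2 units, and the quartiles were 0.156 and 0.311. An SD of at least 0.5 was reached by 449 genes, 4.71% of those described, and an SD of at least 1 by 41 genes, 0.43%. In 162 genes the highest liver was at least 4-fold above the lowest. The spread shrank with brightness: the median SD was 0.326 among 2283 genes with means from 4 to 5 and 0.0949 among 94 genes with means above 11. No sample was measured more than once, so the share of the SD that comes from the array was not tested. A different floor for dim genes changed the count of genes with an SD of at least 0.5 to 219 with means above 5 and to 1178 with all genes.

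**Figure D1:**
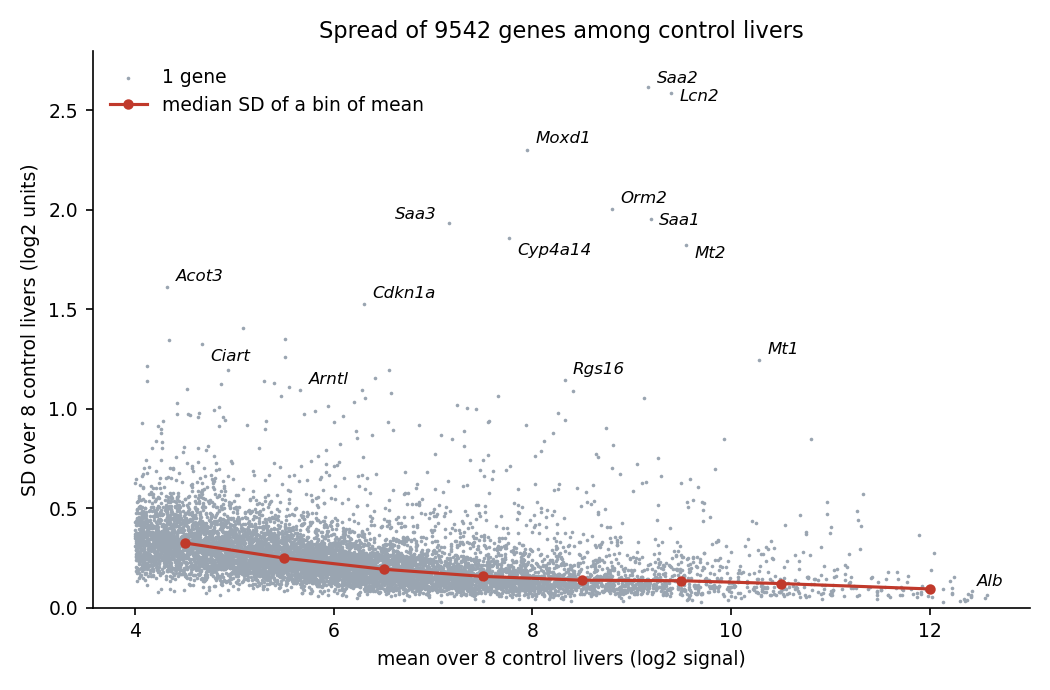
Each grey point is 1 of 9542 genes, placed by its mean level (log2 signal, horizontal) and its SD (log2 units, vertical) over the 8 control livers, and the red line joins the median SD of each bin of mean. The red line drops from 0.326 to 0.0949, while Saa2, Lcn2, Moxd1 and Orm2 lie at an SD of 2 or more, far above it.

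The brightest genes were those of secreted plasma proteins. Apoe, the ligand that carries lipoproteins to their receptors, had the highest mean, 12.58 ± 0.0627 (SD, n = 8), and Alb, serum albumin, followed at 12.56 ± 0.0471. The iron carrier Trf (12.43), the apolipoproteins Apoa2 (12.42) and Apoa1 (12.41), the urinary proteins Mup2 (12.41) and Mup22 (12.38), and Vtn, Ahsg, Serpina1a, Serpina1e, Fgg, Ttr and Fga were also among the 15 brightest. Only Mgst1 (12.35), a membrane-bound glutathione transferase, is no secreted protein. These signals lie near the top of the range of the array, and quantile normalization hands the same few values to the brightest genes of each array, and how far this sets their order and small SDs was not tested. The Mup and Serpina1 genes are families of near-identical copies, and their probe sets may share signal.

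Among genes with means above 8 the steadiest were Serpina1c (SD 0.0307), Mgst1 (0.0333), Pgk1 (0.0337), Uqcrc1 (0.0345) and Serpina1a (0.0358). Pgk1, a glycolytic enzyme, read from 8.85 in control 5 to 8.97 in control 3. Uqcrc1, a core subunit of respiratory complex III, read from 8.36 to 8.47. Lists of genes that mark zones of the liver lobule were also steady, with a median SD of 0.164 over 11 pericentral genes and 0.131 over 11 periportal genes. The median SD of all genes was 0.222, but the zonal genes are brighter than most, and bright genes have small SDs in general.

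At the other end were genes of the acute phase. Saa2 (SD 2.62), Lcn2 (2.59), Moxd1 (2.3) and Orm2 (2.0) were the only genes with an SD of 2 or more, followed by Saa1 (1.95), Saa3 (1.93), Cyp4a14 (1.86), Mt2 (1.82), Acot3 (1.61) and Cdkn1a (1.53). Saa1, Saa2 and Saa3 encode serum amyloid A, Lcn2 an iron-siderophore-binding protein, Orm2 an orosomucoid, and Mt2 a metal-binding metallothionein. The control livers therefore differed from each other by as much as 89.7-fold in the level of Lcn2.

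Saa1 read 10.3, 10.67, 11.24, 6.37, 8.77, 10.31, 9.74 and 6.12 in controls 1, 3, 4, 5, 6, 7, 9 and 10. Controls 5 and 10 were lowest, control 6 came next, and control 4 was highest. In the same order of livers, Saa2 read 11.2, 11.33, 11.71, 5.71, 7.6, 10.71, 9.82 and 5.23. Lcn2 read 11.04, 11.3, 11.97, 5.87, 7.9, 10.82, 10.81 and 5.48. Both genes put controls 5 and 10 at the bottom, control 6 above them, and the other 5 livers well above control 6. Orm2 read 10.09, 10.14, 11.33, 5.95, 7.72, 9.64, 9.52 and 6.02, and gave the same picture.

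**Figure D2:**
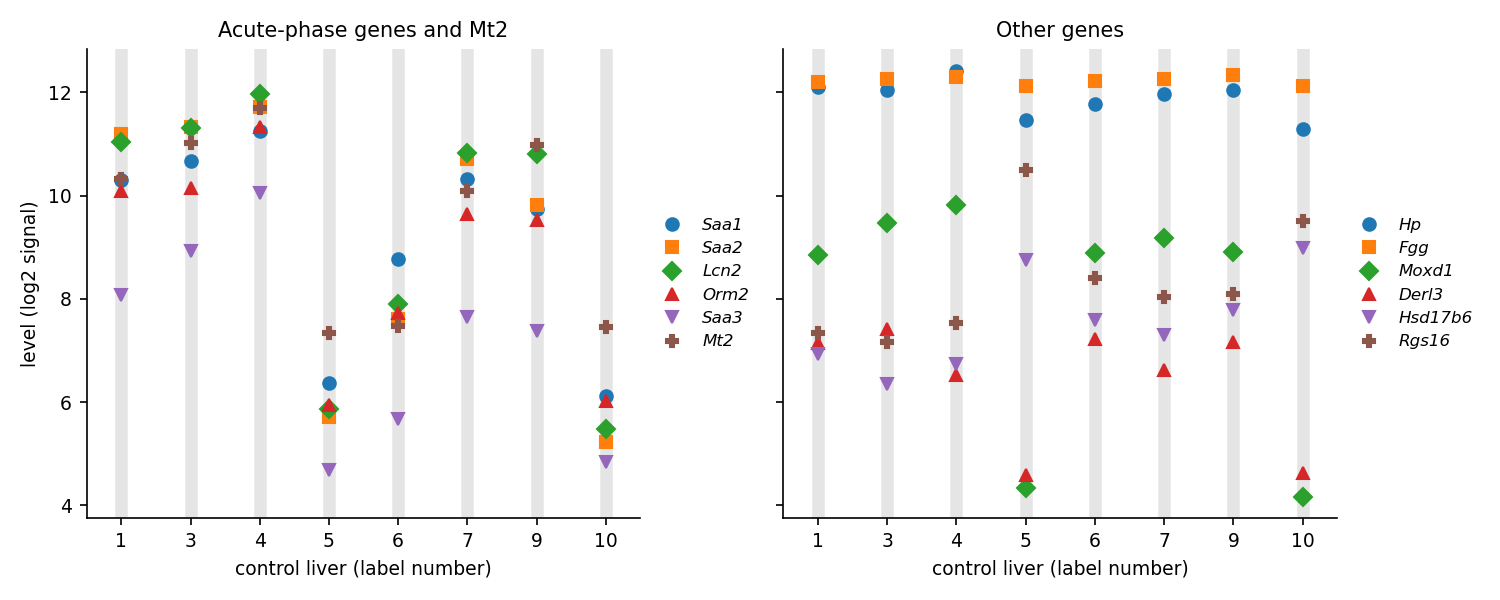
Level (log2 signal, vertical) in each of the 8 control livers (label number, horizontal), 1 point per gene and liver. On the left Saa1, Saa2, Lcn2, Orm2, Saa3 and Mt2 are highest in control 4 and low in controls 5 and 10. On the right Fgg stays between 12.13 and 12.34, Hp is lowest in control 10, Moxd1 and Derl3 are low only in controls 5 and 10, and Hsd17b6 and Rgs16 are highest in those same livers.

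Each gene was regressed on Saa1 over the 8 livers with limma, and a slope is the change in a gene's log2 level per unit of log2 Saa1. Of 9541 genes tested, 72 had a Benjamini-Hochberg adjusted p under 0.05, which is 0.755%, with 57 positive slopes (0.597%) and 15 negative (0.157%). Without adjustment, 1194 genes (12.5%) had a p under 0.05. Of 20 acute-phase genes other than Saa1, 11 were called with a positive slope and none with a negative one, and the slope of all 20 was above 0. The median correlation with Saa1 was 0.92 over the 20 genes and -0.031 over all genes tested. The acute-phase list and the choice of Saa1 rest on genes already known to rise together, so these counts describe how far that holds among control livers.

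The size of the acute-phase swing depended on the gene. The limma slopes on Saa1 were 1.32 ± 0.08 (SE) for Saa2, 1.3 ± 0.079 for Lcn2 and 1.01 ± 0.064 for Orm2, each with an adjusted p of 0.00011. Saa3, a serum amyloid A gene also made outside hepatocytes, had a slope of 0.93 (adjusted p = 0.012 by limma). The abundant plasma proteins moved less: the slope was 0.28 for Orm1, 0.18 for the haemoglobin scavenger Hp, and 0.18 and 0.19 for the inter-alpha-trypsin inhibitor chains Itih3 and Itih4, all called. Apcs, serum amyloid P component, had a slope of 0.49 and Steap4, a metalloreductase, one of 0.34, both called. The fibrinogen chains Fga, Fgb and Fgg had slopes of 0.048, 0.077 and 0.029 with limma adjusted p of 0.46, 0.29 and 0.68. The levels of the fibrinogen chains lie close to the top of the signal range. So do those of Hp (mean 11.89), and Orm1 reached 12.21 in control 4. How far this sets the smaller slopes of these genes was not tested. The 3 Saa and the Orm genes have close relatives in the genome, and their probe sets may share signal.

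The number of genes called fell when any liver but control 6 was left out. There were 15 calls without control 1, 22 without 3, 14 without 4, 23 without 5, 77 without 6, 28 without 7, 34 without 9 and 13 without 10. Of the 72 genes, 8 were called in each of these refits, namely Saa2, Lcn2, Orm2, Saa3, Moxd1, Fgl1, Atp11a and Rgs16, and 9 in none. Over those refits 4 to 11 of the 20 acute-phase genes were called, and all 20 slopes stayed above 0. Leaving out both controls 5 and 10, a setting chosen after seeing the data, left 8 calls, 3 of them in the acute-phase list, and the 20 slopes were again above 0. Saa2 and Orm2 each had an adjusted p of 0.049 by limma in that refit, with slopes of 1.73 and 1.36, and Lcn2 had a slope of 1.56 (adjusted p = 0.085). By exact permutation tests of single pairs, Saa1 correlated with Saa2 with r = 0.98 and rho = 0.98 (adjusted p = 0.00069 over 28 pairs tested), and r was 0.96 without controls 5 and 10. The exact test gave r = 0.98 for Lcn2 (adjusted p = 0.00069) and for Orm2 (adjusted p = 0.0014), and r was 0.94 and 0.97 without the same 2 livers.

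The sequences before the transcription start of these genes are shown because their levels moved together. They are the 250 bases upstream from RefSeq, build GRCm38.p6, printed in lower case on the gene's own strand. Capitals mark TTNCNCAA, a form of the C/EBP site, on either strand. It occurred in at least 1 window of 57.9% of 19 acute-phase genes that matched by symbol, and in 11.7% of 32851 single promoter windows of this length. The units differ, because a gene with several windows had more chances of a match.
Saa1 (chr7:46742981-46743230, minus strand): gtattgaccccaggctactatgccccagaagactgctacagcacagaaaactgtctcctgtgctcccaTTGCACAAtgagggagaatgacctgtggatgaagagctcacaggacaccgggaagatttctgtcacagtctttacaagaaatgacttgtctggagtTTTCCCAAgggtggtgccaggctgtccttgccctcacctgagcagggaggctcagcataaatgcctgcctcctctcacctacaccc
Saa2 (chr7:46751583-46751832, plus strand): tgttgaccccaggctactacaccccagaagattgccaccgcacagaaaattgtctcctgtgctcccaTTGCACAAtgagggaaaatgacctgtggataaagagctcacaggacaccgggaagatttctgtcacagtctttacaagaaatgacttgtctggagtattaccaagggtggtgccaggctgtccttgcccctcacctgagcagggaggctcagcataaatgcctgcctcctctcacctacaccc
Orm2 (chr4:63362199-63362448, plus strand): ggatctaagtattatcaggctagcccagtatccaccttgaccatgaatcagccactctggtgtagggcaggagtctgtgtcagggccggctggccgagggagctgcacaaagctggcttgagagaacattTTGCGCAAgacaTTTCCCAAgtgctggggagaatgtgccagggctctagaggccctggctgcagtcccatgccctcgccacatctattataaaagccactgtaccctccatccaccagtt
The match in Saa2 began 183 bases upstream of the start and the distal match in Saa1 182 bases upstream, and Saa1 held another 86 bases upstream. In Orm2 the matches began 120 and 108 bases upstream. A match is only a run of letters and was not tested for binding.

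Several other genes followed Saa1. Fgl1, a fibrinogen-like protein secreted by hepatocytes, had a slope of 0.42 (adjusted p = 0.0011), Nnmt, nicotinamide N-methyltransferase, one of 0.33 (0.011), and Atp11a, a phospholipid flippase, one of 0.44 (0.003), all by limma. Lrg1, a leucine-rich plasma glycoprotein noticed among the called genes, had a slope of 0.34. Leaving out 1 liver ended the call of Nnmt without control 10 and of Lrg1 without 5 or 10. Mt2 had a slope of 0.84 (adjusted p = 0.034 by limma), but its levels fell into separate ranges, 7.33, 7.46 and 7.47 in controls 5, 10 and 6 and 10.09 to 11.69 in the other 5. The Mt2 call was lost in 6 of the 8 refits that left out 1 liver and kept without control 6 or 9, where the adjusted p was 0.0043 and 0.043. Asns, asparagine synthetase, had a slope of 0.52 (adjusted p = 0.034 by limma) and ran from 3.86 in control 10 to 7.27 in control 4, and was called in 2 of those 8 refits.

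Moxd1, a monooxygenase-like gene with higher levels in male than in female mouse liver, differed between the livers mainly by 1 large step. It read 8.85, 9.46, 9.81, 4.34, 8.88, 9.18, 8.9 and 4.17 in controls 1, 3, 4, 5, 6, 7, 9 and 10. Controls 5 and 10 were more than 4 log2 units below all others, and control 6, which was low in Saa2, was not low in Moxd1. The limma slope on Saa1 was 1.13 ± 0.11 (SE) with an adjusted p of 0.0022. Without controls 5 and 10 it was 0.369 ± 0.12 (SE, adjusted p = 0.36). Most of the slope therefore rests on those livers, and whether Moxd1 also grades with Saa1 among the other 6 is not settled. Other genes with sex-biased levels in mouse liver were mixed. Controls 5 and 10 were both below the other 6 livers in 6 of 15 listed genes, Moxd1 included, and in 6.08% of all genes described, a division of the livers chosen after Moxd1 and Saa1 were seen. Apart from Moxd1 the steps were small: the higher of controls 5 and 10 and the lowest of the others were 10.21 and 10.71 for C6, 9.04 and 9.51 for Cyp7b1, 8.01 and 8.21 for C8a, 7.28 and 7.52 for Susd4, and 12.11 and 12.23 for Serpina1e. The other 9 genes had no such split: Elovl3 read 8.64 in control 5 and 10.51 in control 10, and Cyp4a12a 8.88 and 10.19. Moxd1 was the only one of the 15 called by limma on Saa1, and 8 had an unadjusted p under 0.05.

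Some genes of the endoplasmic reticulum, where secreted proteins are folded, gave a similar split. Derl3, a factor that exports misfolded proteins, read 7.14, 7.41, 6.52, 4.59, 7.22, 6.62, 7.16 and 4.62 in controls 1, 3, 4, 5, 6, 7, 9 and 10. Creld2, a calcium-binding chaperone of that compartment, read 8.53, 8.63, 8.24, 6.98, 8.72, 8.23, 8.17 and 6.7. Both were lowest in controls 5 and 10 and did not overlap with the other 6 livers, as in 6.08% of all genes described. That division was chosen after Moxd1 and Saa1 were seen, and Derl3 and Creld2 are the most variable members of their list. For both, control 6 was as high as controls with far more Saa1. With all 8 livers neither was called on Saa1 by limma (slopes of 0.5 and 0.33, adjusted p of 0.065 and 0.068). Of 18 genes of the unfolded protein response, Sdf2l1 (slope 0.28, adjusted p = 0.019 by limma) and Hyou1 (0.19, 0.042) were called with positive slopes on Saa1. Dnajb9 was called with a negative slope, -0.2 (adjusted p = 0.028). With an unadjusted limma p under 0.05 there were 13 of 18, against 12.5% of all genes, 10 with positive slopes and 3, Dnajb9, Herpud1 (-0.16) and Trib3 (-0.13), with negative ones. Leaving out 1 liver at a time gave between 0 and 5 called genes. Without controls 5 and 10 none of the 18 was called, 1 had an unadjusted p under 0.05, and the slopes of Derl3 and Creld2 turned to -0.2 and -0.12 (adjusted p of 0.71 and 0.8 by limma).

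The upstream sequences of Derl3 and Creld2 are given for the same reason. Capitals mark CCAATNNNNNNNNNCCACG, the endoplasmic reticulum stress element, searched on both strands. It was found in at least 1 window of 8 of 17 genes of the list, namely Calr, Canx, Creld2, Derl3, Dnajc3, Hsp90b1, Hspa5 and Pdia6. Of all 32851 single promoter windows, 0.113% held it, so the units differ here too.
Derl3 (chr10:75893148-75893397, plus strand): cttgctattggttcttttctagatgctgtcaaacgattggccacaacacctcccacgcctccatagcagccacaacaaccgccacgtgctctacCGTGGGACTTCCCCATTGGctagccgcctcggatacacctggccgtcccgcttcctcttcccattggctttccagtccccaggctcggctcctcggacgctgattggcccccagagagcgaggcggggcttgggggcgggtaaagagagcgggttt
Creld2 (chr15:88819396-88819645, plus strand): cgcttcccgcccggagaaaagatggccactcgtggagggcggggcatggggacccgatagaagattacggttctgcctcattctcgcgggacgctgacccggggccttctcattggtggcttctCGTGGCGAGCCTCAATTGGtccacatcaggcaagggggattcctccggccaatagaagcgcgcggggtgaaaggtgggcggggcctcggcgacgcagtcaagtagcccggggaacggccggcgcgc
The element lay on the opposite strand in both, which is why the capitals read as its reverse complement. It began 156 bases upstream of the start in Derl3 and 126 in Creld2.

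Markers of Kupffer cells, the resident macrophages of the liver, moved with Saa1 as well. All 12 markers had a mean above 4, and the mean of their levels ran from 5.97 in the lowest liver to 7.16 in the highest. The complement genes C1qa (slope 0.2) and C1qb (0.21) and the complement receptor Vsig4 (0.22) were called by limma, with adjusted p of 0.029, 0.042 and 0.029. These 3 of 12 stand beside 0.755% of all genes called. All 12 slopes were above 0, and 11 had an unadjusted p under 0.05, against 12.5% of all genes. The scavenger receptor Marco ranged most, from 3.89 in control 5 to 6.89 in control 4. Leaving out 1 liver at a time left 2 called markers without control 6 or 9 and none without any of the other 6. Of 10 neutrophil markers only Csf3r had a mean above 4, and S100a8, Elane, Mpo and Ltf had means of 2.68, 2.79, 2.14 and 1.86. In control 4 S100a9, Ngp, Retnlg and S100a8 read 5.13, 4.29, 4.26 and 4.23, each the highest of the 8 livers. Cxcr2 and Elane were also highest in control 4, while Csf3r, Mpo, Camp and Ltf were highest in other livers. Csf3r had r = 0.73 with Saa1 and was not called (limma adjusted p = 0.21). In bulk tissue, fewer cells of a type and less RNA per cell cannot be told apart. The part of Kupffer cells in the spread of the acute-phase genes was not tested.

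A negative slope on Saa1 was called in 15 genes of several functions. Hsd17b6, a steroid dehydrogenase, had a slope of -0.45 (adjusted p = 0.012 by limma) and read 6.94, 6.35, 6.73, 8.75, 7.59, 7.3, 7.78 and 8.99 in controls 1, 3, 4, 5, 6, 7, 9 and 10. Rgs16, an inhibitor of G-protein signalling, had a slope of -0.55 (adjusted p = 0.016) and read 7.34, 7.17, 7.53, 10.5, 8.4, 8.03, 8.1 and 9.5. Controls 5 and 10 were the 2 highest livers for both. The carboxylesterase Ces1e (slope -0.41, adjusted p = 0.017) and the lysophosphatidylcholine carrier Mfsd2a (-0.37, 0.024) were also called by limma, as was the chaperone gene Dnajb9 above. Leaving out 1 liver ended the call of Hsd17b6 without control 10 (adjusted p = 0.13), of Ces1e without 4, 5 or 10, and of Mfsd2a without 1, 3, 4 or 10. The thioesterase Acot4 had a slope of -0.54 (adjusted p = 0.045), but its call was lost in all 8 of these refits (adjusted p of 0.068 to 0.31 by limma), and the slope was -0.366 without control 10. Without controls 5 and 10 the slopes of Hsd17b6 and Rgs16 were -0.487 and -0.447, with adjusted p of 0.38 and 0.36.

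Arntl, the activator at the head of the clock, differed between the livers in another order than Saa1. It read 4.99, 5.62, 4.49, 3.88, 6.56, 6.56, 6.62 and 6.56 in controls 1, 3, 4, 5, 6, 7, 9 and 10. The 4 livers with the highest label numbers were nearly equal and above all the others, which ran from 3.88 to 5.62. What the numbers stand for is not stated. Arntl and Saa1 had r = 0.01 and rho = -0.1 (adjusted p = 0.99 by an exact permutation test), with r = -0.48 without controls 4 and 5. The clock list had a median SD of 0.565 over 20 genes, against 0.222 for all genes. Other clock genes leaned against Saa1: the median correlation of the 20 with Saa1 was -0.41, against -0.031 for all genes, and 5 had an unadjusted limma p under 0.05, against 12.5% of all genes, with none called. These were the repressors Cry2 (r = -0.93, adjusted p = 0.06), Bhlhe41 (r = -0.80, 0.13), Per1 (r = -0.80, 0.14), Cry1 (r = -0.66, 0.33) and Nr1d1 (r = -0.65, 0.34). The lean was not particular to the clock. The median correlation with Saa1 was -0.66 for the drug metabolism list, -0.6 for the fasting-induced list and -0.57 for the fed-state list.

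Per3 and Dbp, which ARNTL activates, were highest where Arntl was lowest. Per3, a Period gene, read 4.99, 5.57, 6.42, 6.77, 4.58, 4.49, 4.37 and 5.26, and Dbp, a rhythmic transcription factor, read 8.77, 9.07, 9.57, 10.18, 7.91, 7.71, 8.44 and 8.84. Control 5 and then control 4 were highest in both. By exact permutation tests over 28 gene pairs, Arntl correlated negatively with Per3 (r = -0.88, rho = -0.93, adjusted p = 0.023) and Dbp (r = -0.87, rho = -0.86, adjusted p = 0.023). Without controls 4 and 5 these became -0.53 (p = 0.27, exact) and -0.57 (p = 0.22, exact), so the size of both depends on those livers. They were the lowest in Arntl, so leaving them out also narrows its range. Ciart, a repressor of ARNTL and CLOCK, ran from 3.6 in control 9 to 7.14 in control 5, with r = -0.75 against Arntl, rho = -0.88 and an adjusted p of 0.067 by the exact test of r, and r = -0.02 without controls 4 and 5. Nr1d1, which encodes REV-ERBα, the repressor of Arntl, read 7.63 in control 1 and 9 in controls 5 and 10, with r = 0.36, rho = 0.12 and an adjusted p of 0.47 by the exact test. Without controls 4 and 5 the correlation was positive, r = 0.99 (p = 0.015, exact). In the livers left, Arntl read 4.99 and 5.62 in controls 1 and 3 and 6.56 to 6.62 in the rest. Each correlation with Arntl without controls 4 and 5 therefore mainly sets controls 1 and 3 against nearly equal livers. The Cry genes, also activated by ARNTL, gave another order: Cry1 was highest in controls 10 (5.52) and 6 (5.5), and Cry2 in controls 10 (7.37) and 5 (7.21), with limma slopes on Arntl of 0.16 and -0.039 (adjusted p of 0.92 and 0.97).

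In the limma regression on Arntl no gene had an adjusted p under 0.05 (0.0% of 9541), while 687 genes, 7.2%, had an unadjusted p under 0.05. Among 19 clock genes 11 had an unadjusted p under 0.05. Clock, the partner of ARNTL, and Nfil3 had positive slopes, 0.26 and 0.42, and Per3, Usp2, Dbp, Coq10b, Ciart, Wee1, Per2, Nr1d2 and Tef negative ones, between -0.91 and -0.17. The smallest p values over all genes were those of the mitochondrial chaperone Clpx and of Cdkn1a, the cell-cycle inhibitor p21, with an adjusted p of 0.11 for both. Cdkn1a read 4.55, 5.65, 4.56, 4.87, 7.7, 7.6, 7.59 and 7.87, so that the 4 livers high in Arntl were also the 4 high in Cdkn1a, with a gap of nearly 2 log2 units below them. With other settings limma called 4 genes (means above 5), 15 (trend and robust options) and 1 (without control 5).

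**Figure D3:**
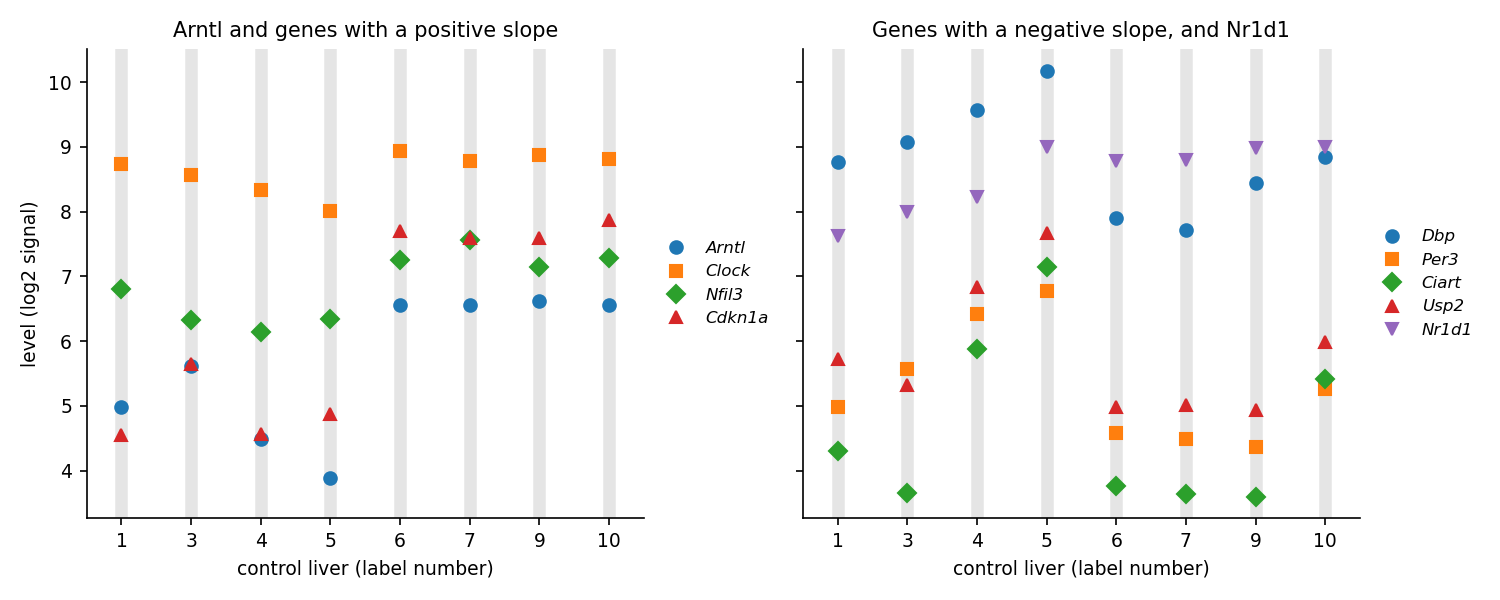
Level (log2 signal, vertical) of clock genes and of Cdkn1a in each of the 8 control livers (label number, horizontal), 1 point per gene and liver. Arntl and Cdkn1a are high in controls 6, 7, 9 and 10, Dbp, Per3, Ciart and Usp2 peak in control 5, and Nr1d1 is lowest in control 1.

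The upstream windows of Ciart and Per3 show the 2 best-known clock motifs. In Ciart, capitals mark CACGTG, the E-box bound by ARNTL and CLOCK, and in Per3 they mark TTANGTAA, a form of the D-box bound by DBP, TEF and HLF, each searched on both strands. The E-box was found in at least 1 window of 6 of 17 clock genes and the D-box in 2 of 17. Of all single promoter windows, 6.02% held the E-box and 2.06% the D-box, so the units differ as above.
Ciart (chr3:95882229-95882478, minus strand): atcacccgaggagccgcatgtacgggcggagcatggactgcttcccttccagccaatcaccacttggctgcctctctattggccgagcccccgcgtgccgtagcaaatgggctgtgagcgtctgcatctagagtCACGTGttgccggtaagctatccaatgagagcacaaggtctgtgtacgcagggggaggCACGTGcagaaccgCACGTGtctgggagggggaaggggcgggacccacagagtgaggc
Per3 (chr4:151044666-151044915, minus strand): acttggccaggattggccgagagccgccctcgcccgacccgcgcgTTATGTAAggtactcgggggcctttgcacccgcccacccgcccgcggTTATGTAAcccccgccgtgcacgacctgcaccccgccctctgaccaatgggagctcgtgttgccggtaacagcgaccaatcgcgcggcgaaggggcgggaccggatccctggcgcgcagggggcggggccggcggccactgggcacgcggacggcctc
Ciart held 3 E-boxes, 116, 58 and 44 bases upstream of the start, and Per3 held 2 D-boxes, 205 and 158 bases upstream.

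Genes of the fed state and fatty acid synthesis had a median SD of 0.295 over 17 genes. That is below the 0.565 of the clock list and the 0.464 of the acute-phase list. The fed-state genes are bright, with a median level of 8.92, and all genes with means from 8 to 9 had a median SD of 0.139. Fasn, fatty acid synthase, was used to stand for the fed state. It read 8.81, 8.94, 8.28, 9.29, 7.66, 8.74, 8.16 and 8.84 in controls 1, 3, 4, 5, 6, 7, 9 and 10, lowest in control 6 and highest in control 5. Of 16 other genes of the fed state, 14 correlated positively with Fasn, with a median r of 0.7, and 9 had an unadjusted limma p under 0.05, against 5.46% of all genes. Acaca, acetyl-CoA carboxylase, had a slope of 0.46, Thrsp, a lipogenic cofactor, one of 1.02, Elovl6, a fatty acid elongase, one of 0.6 and Acly, ATP citrate lyase, one of 0.53. Their limma adjusted p was 0.79, and none of 9541 genes was called (0.0%), with 521 at an unadjusted p under 0.05. Without control 7 limma called 1 gene.

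Fasting-induced and PPARα target genes varied unevenly. Their median SD was 0.478 over 20 genes, and 10 of these had an SD of at least 0.5, against 4.71% of all genes. Cpt1a ran only from 9.7 to 10.12 and Creb3l3 from 9.57 to 9.99, while others had a wide range. Cyp4a14, a fatty acid omega-hydroxylase, read 7.82, 5.74, 4.96, 7.44, 9.57, 7.92, 7.89 and 10.73 in controls 1, 3, 4, 5, 6, 7, 9 and 10, which is 54.4-fold from lowest to highest. Pdk4, the kinase that shuts off pyruvate oxidation, read 5.01, 4.5, 3.97, 3.83, 5.63, 4.89, 5.23 and 5.68. Controls 6 and 10 were the 2 highest in both, while control 5 was lowest in Pdk4 and controls 4 and 3 in Cyp4a14. The pair had r = 0.82 and rho = 0.86 (adjusted p = 0.035 by an exact permutation test), and r = 0.95 without controls 4 and 5. Pdk4 also correlated with Arntl (r = 0.86, adjusted p = 0.03, and rho = 0.67, adjusted p = 0.18, by exact tests), but with r = 0.55 (p = 0.26, exact) without controls 4 and 5.

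Of 19 other fasting-induced genes, 16 had a positive correlation with Pdk4 and 9 an unadjusted limma p under 0.05, against 7.48% (714) of all genes. The slopes were 0.45 for the lipid droplet coat Plin2, 2.18 for Cyp4a14, 0.88 for the peroxisomal enzyme Ehhadh, 1.21 for Cyp4a10 and 0.84 for the hormone gene Fgf21. No gene was called by limma (0.0% of 9541), and the lowest adjusted p in the list was 0.23, that of Plin2. With other settings limma called 7 genes (means above 5), 19 (trend and robust options), 1 without control 1 and 25 without control 5. Of the genes of gluconeogenesis, G6pc, glucose-6-phosphatase, was among the 9, with a slope of 0.39 and r = 0.63 (limma p = 0.045, adjusted p = 0.66), and read between 11.12 and 11.68 in 7 livers and 10.27 in control 4. Pck1, the kinase that makes phosphoenolpyruvate, ran only from 10.96 to 11.33, with r = 0.066 (limma adjusted p = 0.98). Against Fasn, Pdk4 had r = -0.47 and rho = -0.45 (adjusted p = 0.35 by the exact test), and r = -0.03 without controls 6 and 9.

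Acot3 and Acot4 encode acyl-CoA thioesterases, which free fatty acids from coenzyme A, and both were highest in control 10. Acot3 read 3.01, 2.83, 4.22, 5.25, 4.33, 3.22, 3.92 and 7.78, and Acot4 read 3.98, 4.72, 4.4, 5.87, 5.02, 3.53, 4.59 and 7.34. Control 5 came next in both. The mean of Acot3, 4.32, lies near the floor of 4 and passes it only through control 10. Its place among the genes of largest SD therefore rests on that liver. Without control 10 the SD fell from 1.61 to 0.862 for Acot3 and from 1.2 to 0.749 for Acot4. The Acot genes lie in a family of close copies, so their probe sets may share signal.

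**Figure D4:**
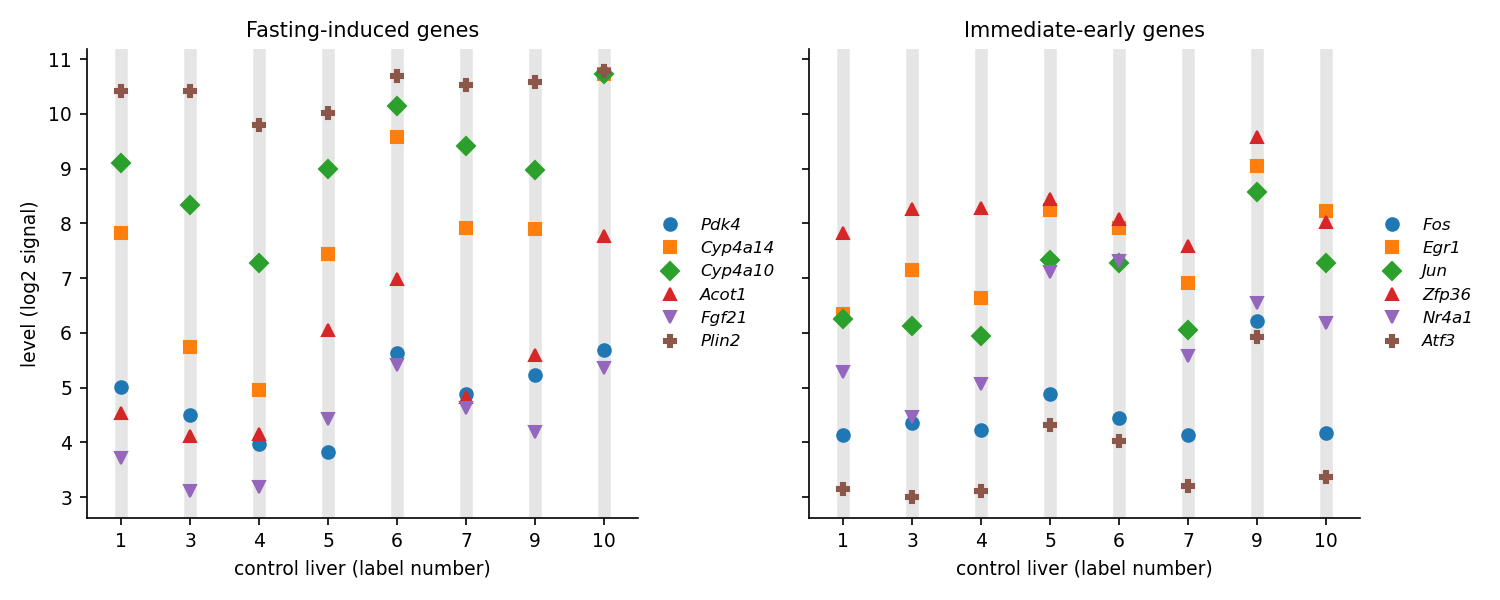
Level (log2 signal, vertical) of fasting-induced genes (left) and immediate-early genes (right) in each of the 8 control livers (label number, horizontal), 1 point per gene and liver. Cyp4a14, Cyp4a10, Acot1 and Fgf21 are high in controls 6 and 10 and low in controls 3 and 4. Fos, Egr1, Jun, Zfp36 and Atf3 are highest in control 9, and Nr4a1 is highest in control 6.

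Several but not all immediate-early genes set control 9 apart. Fos read 4.14, 4.36, 4.23, 4.89, 4.45, 4.13, 6.22 and 4.17 in controls 1, 3, 4, 5, 6, 7, 9 and 10, and its partner Jun 6.25, 6.13, 5.94, 7.33, 7.28, 6.05, 8.57 and 7.28. The zinc-finger factor Egr1 read 9.04 in control 9 and 6.34 to 8.24 in the others. Zfp36, which destabilises cytokine messages, read 9.57 in control 9 and at most 8.45 elsewhere. By exact permutation tests Fos correlated with Jun (r = 0.84, rho = 0.67, adjusted p = 0.03) and Egr1 (r = 0.76, rho = 0.76, adjusted p = 0.03). Without controls 5 and 9 these were 0.37 (p = 0.48, exact) and 0.42 (p = 0.4, exact), so the size of both depends on those livers. Controls 5 and 9 were the highest in Fos, so leaving them out also narrows its range. By rho the adjusted p was 0.18 for Jun and 0.11 for Egr1. In the limma regression on Fos 7 of 15 listed genes had an unadjusted p under 0.05, against 3.47% (331) of all genes. None was called (0.0% of 9541), and 1 gene was called with all genes or with trend and robust options. Other listed genes did not peak in control 9. Nr4a1 (7.32) and Dusp1 (10.48) were highest in control 6, Klf2, Klf6 and Egr2 in control 1, and Gadd45b in control 10. Myc was highest, at 8.91, in control 3, without which its SD was 0.779 in place of 1.2.

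Targets of the glucocorticoid receptor did not vary as one group. Fkbp5, a chaperone that limits the receptor, read 6.91, 5.95, 8.09, 7.93, 7.68, 7.64, 7.6 and 8.21 in controls 1, 3, 4, 5, 6, 7, 9 and 10, lowest in controls 3 and 1. The median correlation of 18 listed targets with Fkbp5 was -0.083, and 2 had an unadjusted limma p under 0.05, against 4.73% (451) of all genes, with none called (0.0% of 9541). These 2 were Zbtb16, a zinc-finger repressor, with a slope of 1.16, and Per1 with one of 0.58 (limma adjusted p of 0.95 and 0.99). Fkbp5 and Per1 had r = 0.72 and rho = 0.86, with an adjusted p of 0.088 for r and 0.037 for rho by exact tests, and r = 0.72 without controls 1 and 3. Tsc22d3, another widely used target, had r = -0.02 and rho = 0.07 with Fkbp5 (adjusted p = 0.99 by the exact test), and r = -0.08 without controls 1 and 3.

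Of the 28 gene pairs tested, 9 had an adjusted p under 0.05 by the exact test of r and 8 by that of rho, and 14 had an unadjusted p under 0.05 by r. Leaving out each liver in turn lowered the count by more than 1.5 times without control 4 (3 pairs), 5 (5 pairs), 6 (3 pairs), 7 (3 pairs) or 9 (3 pairs).

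Grouping of the 100 genes with the largest SDs by their correlation summarised these patterns. It used the same values, so it is a description only. Of the 100 genes, 94 fell into 6 groups of at least 4 genes, called modules here. Among the 4950 pairs of these genes 5.43% had a correlation of at least 0.9 in size, against 0.297% of pairs of all genes described.

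The largest module, with 40 genes, held the acute-phase genes, Moxd1, both metallothioneins Mt1 and Mt2, Derl3, Creld2, Asns, the chemokine Cxcl13, the macrophage receptor Marco, the granulocyte gene Prtn3 and Sqle, a sterol synthesis enzyme. Its median deviation was 1.43 log2 units in control 4 and -1.31 in control 10. A module of 19 genes held Cyp4a14, Cyp4a10, Acot1, Fgf21, Vnn1, Cdkn1a, Arntl and Elovl3, and was highest in control 10 (1.28) and lowest in control 4 (-1.38). A module of 12 genes with Acot3, Acot4, Abcd2, Lepr, Rgs16 and Hsd17b6 was high in controls 5 (1.28) and 10 (1.34). Another of 12 genes held Ciart, Usp2, Wee1, Per3, Dbp, the bile acid enzyme Cyp7a1 and the steroid enzyme Cyp17a1, and was highest in control 5 (1.34) and lowest in control 7 (-1.03). A module of 7 genes held Zbtb16, Nr4a1, Egr1, Jun, Arrdc3, Klf10 and Angptl8, and was highest in control 9 (1.25) and lowest in control 1 (-1.22). The smallest, of 4 genes, held Cxcl1, Cish, Dpt and Phlda1, and was high in controls 3 (1.32) and 9 (1.24). Besides Acot3, other named members lie near the floor of 4. The mean of Prtn3, 4.117, passes it only through control 4 (6.29). That of Lepr, 4.115, passes it only with both control 5 (5.91) and control 10 (5.85). The places of Prtn3 and Lepr in their modules therefore rest on those livers.

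**Figure D5:**
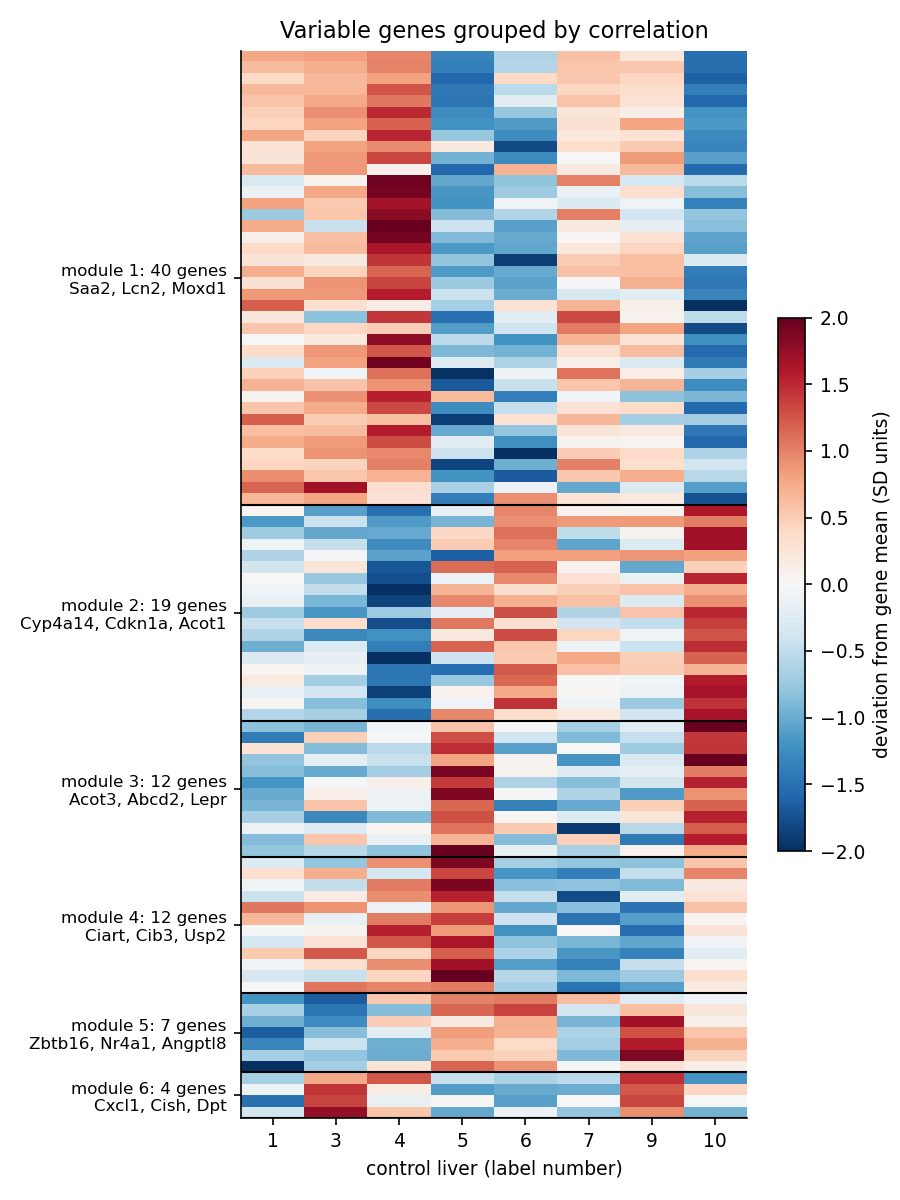
Each row is 1 of 94 variable genes and each column 1 control liver (label number), coloured by the deviation of the gene from its mean over the 8 livers in SD units, with black lines between the 6 modules. The 40 genes of module 1 are mostly red in control 4 and blue in controls 5 and 10, and module 4, with Ciart, is reddest in control 5.

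The modules were not equally firm. When 1 liver was left out, 29 to 39 genes of the largest module stayed together, 29 of them without control 10. The module with Cyp4a14 kept 9 of its 19 genes together without control 4 and 11 without control 10, and 15 to 19 otherwise. The module with Ciart kept 4 of 12 without control 5 and 8 to 12 otherwise. The module with Acot3 kept 5 of 12 without control 10, 6 without control 5 or 6, and 9 to 11 otherwise. The module of 7 genes kept 3 without control 10 and 4 to 7 otherwise. The module of 4 genes was the least firm, with 1 gene left in place without control 5, 7 or 9 and 2 to 4 otherwise, and by Spearman's correlation none of the 4 stayed together. On the first principal component of all genes described, which held 29.5% of the variance, control 4 stood at one end (23.2) and control 10 (-22.5) and control 5 (-16.7) at the other. On the second, with 16.9%, control 5 stood at one end (-19.4) and control 6 (14.7) and control 7 at the other.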

How the data were processed

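Total RNA from mouse liver was isolated with TRIzol, labelled with biotin and hybridised to 1-colour Affymetrix arrays, per the labels' protocols. The authors deposited log2 signals for 29129 probe sets, with a summarisation method not stated in the labels. Only the 8 control columns were read, with column medians within 0.033 of each other.

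Quantile normalization over these columns changed no value by more than 0.103. The platform annotation, which can be old, paired 19572 rows with 1 symbol each. The 9557 rows it lists without one, control and spike-in rows among them, were dropped. The row with the highest mean was kept for each of 19505 genes, and 55 genes had several rows. A gene was described if its mean was above 4, and 9542 were.

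Each gene was regressed on 1 chosen gene at a time over the 8 livers with limma (version 3.58.1, lmFit and eBayes, R 4.3.3), two-sided, with Benjamini-Hochberg adjustment over all genes tested and a threshold of 0.05. Pairs were tested by exact two-sided permutation over all pairings, where 2.5e-05 was the smallest p possible, adjusted over 28 pairs (6 of 34 listed pairs had a gene that is not analysed here or too dim). Modules came from average-linkage clustering on 1 minus Pearson's r, cut at 0.5. The steps were tested on simulated data. Python 3.11.15 with numpy 2.4.6, scipy 1.17.1, pandas 2.3.3 and matplotlib 3.10.9 was used.

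The genes, lists and tests were chosen with earlier results of these data known. The text names the 15 brightest genes, the 25 of highest and 5 of lowest SD (means above 4 and above 8), the 4 members of highest SD of each list, both genes of each pair, and for each regression the 4 list members of smallest p in each direction and the 5 genes of smallest p. Other genes were chosen after their values were seen. Genes of a list without a row in the table were left out. Nothing in the labels says that the samples came from separate animals beyond the design text's 8 control mice, so the tests measure the spread between these arrays, whose number limits the precision. The alternatives were the values as deposited, median centring, cyclic loess, the mean of a gene's rows, means above 5 or no floor, limma's trend and robust options, rank correlation, 200 genes in the clustering, and leaving out each liver.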

Additional observations from a re-analysis of the deposited data

Results flagged for a closer look

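A level was picked out when 1 liver lay far from the other 7, by the ratio of its gap to the group's whole range (Dixon's test at its critical value for 8 samples). Chance does this for about 1 group in 20, and it happened for 523 of all genes described (5.48%) and for 20 of the 167 named genes (12.0%).

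Control 9 was apart in 4 named genes. It was high in Fos (6.22), Zfp36 (9.57) and Acta2 (5.98), a smooth-muscle actin of activated stellate cells, and low in Fn3k (3.73), a protein-repair kinase. Control 5 was high in the cytochromes Cyp2a5 (10.28) and Cyp2a4 (8.03), which are near-identical genes, and low in Timd4 (3.49), a Kupffer cell receptor. Control 4 was low in Alb (12.46), Car3 (9.76), a carbonic anhydrase, G6pc (10.27), glucose-6-phosphatase, and the Y-linked Uty (4.55), and high in Trf (12.62). The order of Alb and Trf rests on steps of a few hundredths near the top of the range. Control 1 was low in Apoe (12.44) and in Klf9 (8.59), a glucocorticoid-responsive factor, and high in Mup2 (12.55). Control 6 was low in Ap1s1 (5.1) and Ctu2 (4.07). Rrm2, a ribonucleotide reductase subunit, was low in control 3 (3.59), Vwf, an endothelial gene, was low in control 7 (3.38), and Uqcrc1 was high in control 10 (8.47).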

How the results depend on the processing

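Scaling the arrays otherwise (as deposited, median centring, cyclic loess) or averaging a gene's rows kept each count of genes called, of pairs called and of variable genes within 1.5 times its value, and no called value changed sign. No paired analysis was possible because only the control group was used, so no second group shares the replicate numbers. Calls depended on single livers: leaving out 1 gave 13 to 77 calls for Saa1 (72 with all 8), 0 to 1 for Arntl and Fasn, 0 to 25 for Pdk4 and 3 to 8 of 28 gene pairs (9 with all 8). With limma's trend and robust options there were 229 calls for Saa1, 19 for Pdk4, 15 for Arntl and 1 for Fos. With means above 5 there were 7 for Pdk4 and 4 for Arntl, and with all genes 22 for Saa1 and 1 for Fos. Without both controls 5 and 10 there were 8 for Saa1. An SD of at least 0.5 was reached by 219 genes with means above 5 and by 1178 of all genes, and the largest of the modules of 200 genes held 71. The cause of these differences was not tested, apart from the number of genes or samples that each setting itself changes. The 8 arrays limit what could be called.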

Other observations

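Genes of cholesterol synthesis correlated with each other. The median pairwise correlation was 0.73 over 16 genes (120 pairs), against -2.2e-05 over all genes described, and the median correlation of the 16 with Saa1 was -0.028. On Saa1 limma called 0 of the 16, against 0.755% of all genes, and 1 had an unadjusted p under 0.05, against 12.5%. On Pdk4, 14 of the 16 had an unadjusted limma p under 0.05, against 7.48% of all genes, with a median r of -0.74. On Arntl it was 10 of the 16, against 7.2%, with a median r of -0.67. With both regressors all correlations of the 16 were negative, and limma called no gene. Sqle, squalene epoxidase, read 6.29, 7.03, 7.6, 6.78, 5.01, 6.17, 5.5 and 5.42 in controls 1, 3, 4, 5, 6, 7, 9 and 10, and Hmgcs1, the synthase at the entry to the pathway, read 8.28, 9.27, 9.09, 9.22, 8.24, 8.43, 8.05 and 8.73. Controls 3, 4 and 5 were the 3 highest in both. By an exact permutation test the pair had r = 0.76 and rho = 0.71 (adjusted p = 0.086), and r = 0.71 without controls 4 and 6. Arntl and Sqle had r = -0.78 and rho = -0.69 (adjusted p = 0.082 by the exact test of r), and r = -0.67 without controls 4 and 5.

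Cytochromes that clear drugs also differed. Cyp3a11 ran from 8.26 in control 4 to 10.27 in control 10. Cyp2a5 read 10.28 in control 5 and between 8.41 and 9.14 in the others. The carboxylesterase Ces2a ran from 6.71 in control 4 to 8.45 in control 5. None of 14 listed genes of drug metabolism was called against Saa1 by limma, and 7 had an unadjusted p under 0.05, against 12.5% of all genes. The median correlation of the 14 with Saa1 was -0.66, and 2 of them correlated positively.

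Interferon-induced genes had a median SD of 0.305 over 15 genes, above the 0.222 of all genes, and a median level of 5.12. The median SD of all genes was 0.326 at means from 4 to 5 and 0.25 from 5 to 6. Zbp1 alone of the 15 had an SD of at least 0.5, against 4.71% of all genes. Zbp1, a sensor of unusual nucleic acids, ran from 3.47 in control 6 to 5.51 in control 4. Cell-cycle genes were dim, with 6 of 20 measured genes above a mean of 4.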
